A study of Campylomormyrus compressirostris and Campylomormyrus rhynchophorus and Campylomormyrus compressirostris x Campylomormyrus rhynchophorus with 15 samples.

Results

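Of 34492 gene models counted in the juvenile electric organ, 143 are described here for a level in the F1 hybrids above both parental species. They were chosen by 3 limits on the level in TPM, the usual transcript abundance of RSEM, scaled by transcript length and library: a hybrid mean of at least 1 TPM, every hybrid fish above every parental fish, and a hybrid mean at least 1.5 times the larger of both parental means. In all, 145 models met the limits (0.784% of the 18489 models with enough reads to be tested), and 2 of them that the study prints by identifier in its gene tables were left out. As the choice was made on the hybrid and parental levels themselves, these levels are described without a test. Electric organ RNA was sequenced from 5 *C. compressirostris* (*com*), 5 *C. rhynchophorus* (*rhy*) and 5 F1 hybrids (named comrhy in the labels), whose father was *com* and whose mother was *rhy*. All fish were juveniles of 6 cm, bred in captivity at the University of Potsdam, with 1 library per fish. At this stage the electric organ discharge (EOD) is short in *com* and in the hybrids and longer in *rhy*. The labels give neither age, sex, family nor sequencing batch, so that relatedness between fish is not known here and p-values measure the spread between these fish.

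An F1 hybrid carries 1 allele of each gene from each parental species in a shared cell environment. Where alleles act additively, the level in the hybrid lies between those of the parents, and levels beyond both parents are known as transgressive expression in crosses of many animals and plants. The electric organ of mormyrids develops from skeletal muscle, and its electrocytes fire together, driven by sodium and potassium channels, to produce the EOD. The deposited files do not pair gene models with names, so the 143 models have no known function here. They are described by their levels and by the rank of their ratio, where rank 1 has the largest ratio of hybrid to larger parental mean, and 6 of them are given by identifier.

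Such models were fewer in the hybrids than in either parent. With the same limits, 474 models lay in *com* above both other groups and 995 in *rhy*. With the limits turned round, 44 models lay in the hybrids below both parents, 966 in *com* and 837 in *rhy* below both other groups. The 143 models are 0.415% of all models and 0.8% of the 17875 models with a hybrid mean of at least 1 TPM. It was mostly the lack of overlap between fish that set the number: 1632 models met the limits on level and ratio alone (1622 without printed identifiers), and 228 the limits on level and overlap alone. The models with ratios just inside the limit had 1.50019, 1.50334 and 1.5064, those just outside 1.49841, 1.48434 and 1.47968. Of models that met the other limits, the lowest hybrid means inside were 1.152, 1.534 and 1.668 TPM, the highest outside 0.496, 0.456 and 0.276 TPM.

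Library totals ranged from 12973363 to 19259314 expected counts in the hybrids, from 8346594 to 11549627 in *com* and from 12502127 to 13927972 in *rhy*. The most abundant model of each library took 3.63 to 19.3% of the counts in *com*, 2.64 to 5.18% in *rhy* and, among hybrids, 4.38 to 5.89%. It was not the same model in all libraries. By TPM, com104 had another most abundant model than the other *com*, at 4.22% of its TPM, beside 7.96 to 16.1% in those. Since TPM sums to the same total in each library, a larger share for abundant genes lowers all other values. Over all models tested, the median log2 ratio of hybrids to *com* was 0.19 in TPM and 0.03 after scaling by trimmed mean of M values (TMM), and that of hybrids to *rhy* was 0.06 and 0.04. With CPM (counts scaled by library size alone) adjusted by TMM in place of TPM, 93 of the 143 models met the limits, 26 of the other 50 had a ratio under 1.5, and in 38 some hybrid and parental fish overlapped, while 11 models not among the 143 met them. Of the models of rank 1 to 50, 41 met the limits under both scalings. Of 3 electrocyte genes, the sodium channel gene SCN4AA stood at 1092 to 1534 TPM in the hybrids, 1094 to 2215 in *com* and 372 to 527 in *rhy*. KCNA7A_1 had 319 to 460 TPM in the hybrids, 1293 to 1722 in *com* and 40.1 to 71.3 in *rhy*. KCNJ2 had 259 to 339 TPM in the hybrids, 76.2 to 257 in *com* and 1149 to 1802 in *rhy*. All 3 were detected in every fish. The groups did not overlap for KCNA7A_1 and KCNJ2, whereas SCN4AA overlapped between the hybrids and *com* and was lower in *rhy*. The summed levels of 6 marker lists for electrocytes, muscle, leukocytes and macrophages, endothelium, pigment cells and myelin did not lie above both parents in all hybrids in any list. All markers are genes that the study prints, several of them because their level rises or falls with EOD duration. That choice bears on whether a list can be highest in the hybrids, so nothing about cell composition is read from these sums. The muscle list (4 genes) summed to 1708 to 2133 TPM in the hybrids, 1697 to 2254 in *com* and 741 to 1267 in *rhy*. The endothelial list (CD34 and FGD5) summed to 130 to 281 TPM in the hybrids, 60.02 to 88.2 in *com* and 795 to 1075 in *rhy*. The leukocyte list (LCP1 and SIGLEC1) summed to 0.37 to 16.0 TPM in the hybrids, 6.87 to 14.9 in *com* and 0 to 0.66 in *rhy*, with LCP1 at a median of 0 in the hybrids and in *rhy*. SIGLEC1 was low throughout, at 0.33 to 1.1 TPM in the hybrids, 0 to 0.54 in *com* and 0 to 0.56 in *rhy*. The part of cell composition in the levels of the 143 models was not tested. As these are bulk samples, fewer cells of a type and less RNA per cell cannot be told apart.

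Together, the 143 models took up more of the RNA in the hybrids than in the parents. They summed to 7567 TPM in comrhy59, 8533 in comrhy60, 9954 in comrhy61, 10780 in comrhy62 and 7730 in comrhy63, against 2688 to 3538 TPM over the 5 *com* and 3004 to 3650 TPM over the 5 *rhy*. Rank 13, a short model of 209 bases, alone gave 1156, 1151, 2616, 3333 and 1202 TPM of the hybrid sums in this order. Differences between hybrids in the sum thus rest in part on that model. In counts, the share of the 143 models was 0.649 to 0.765% of a hybrid library, 0.239 to 0.343% in *com* and 0.2401 to 0.3046% in *rhy*. The parents overlapped in this sum and no hybrid came near them, as the limits on single models require. The median over the models of a fish's TPM relative to the larger parental mean was 1.73 in comrhy59, 2.08 in comrhy60, 1.95 in comrhy61, 1.9997 in comrhy62 and 1.79 in comrhy63. In the parents this median lay between 0.798 (com123) and 1.098 (com121) in *com* and between 0.733 (rhy52) and 0.965 (rhy53) in *rhy*. That each hybrid was raised over the models as a group also follows from the limits. Counts in every hybrid for all 143 follow from the limits, as each hybrid had to lie above all parental fish. In the parents, 3 to 10 models were at 0 in a *com* library and 4 to 8 in a *rhy* library. The *com* libraries had the lowest total counts.

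**Figure D1:**
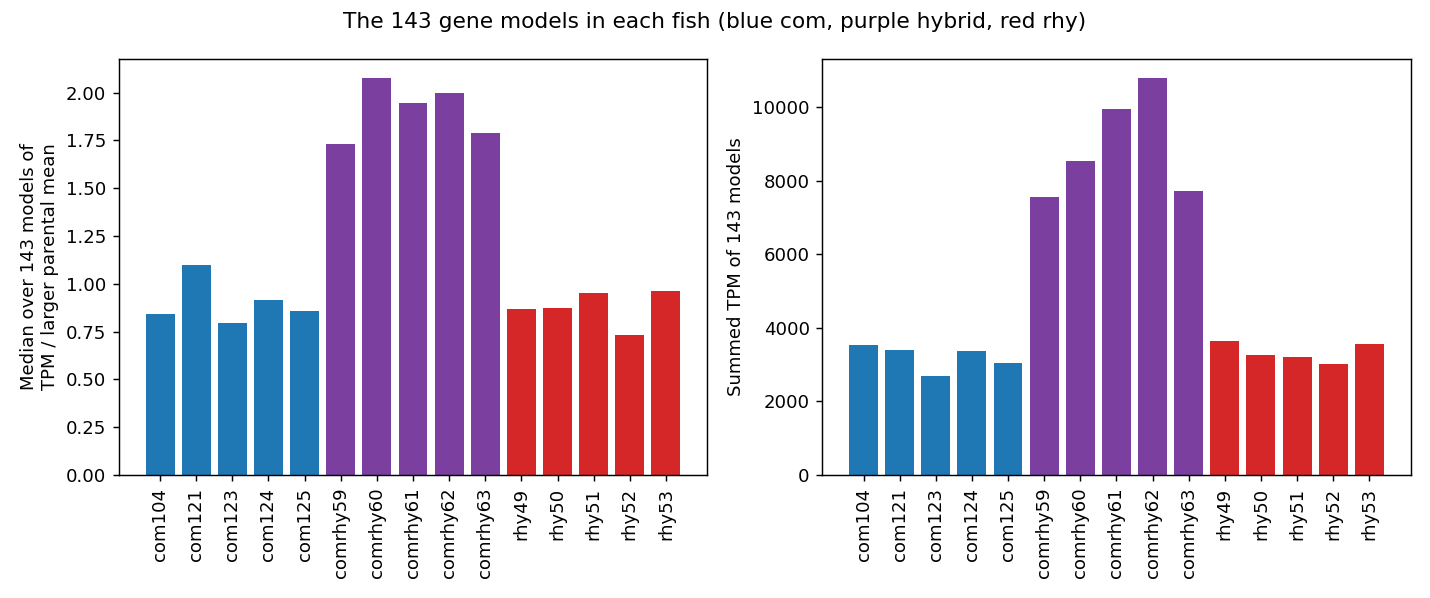
Bars give for each fish (*com* in blue, hybrids in purple, *rhy* in red) the median over the 143 gene models of TPM divided by the larger parental mean (left) and the summed TPM of the models (right). The hybrids, which were used to choose the models, stand at 1.73 to 2.08 and at 7567 to 10780 TPM, and the parental fish reach at most 1.098 and 3650 TPM. Rank 13 alone gives 1151 to 3333 TPM of the hybrid sums.

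Most models were raised by a moderate factor, and a few were close to silent in the parents. The ratio of hybrid to larger parental mean had a median of 1.95 and was over 5 in 11 models, from 2 to 5 in 57 and under 2 in 75. In 86 models the hybrid mean was above the sum of both parental means, which held for 5.96% of all models tested. The limits on ratio and overlap favour such models. In 5 models both parental means were under 10% of the hybrid mean. The gap between the groups, taken as the lowest hybrid fish over the highest parental fish, was narrower, with a median of 1.14. It was over 2 in 6 models and over 1.5 in 17, while in 56 it was under 1.1. Hybrid means ran from 1.15 to 1891 TPM with a median of 17.2 TPM, beside medians of 7.97 TPM in *com* and 7.88 TPM in *rhy*. Of the models, 33 had a hybrid mean under 5 TPM, 89 from 5 to 100 TPM and 21 at least 100 TPM.

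**Figure D2:**
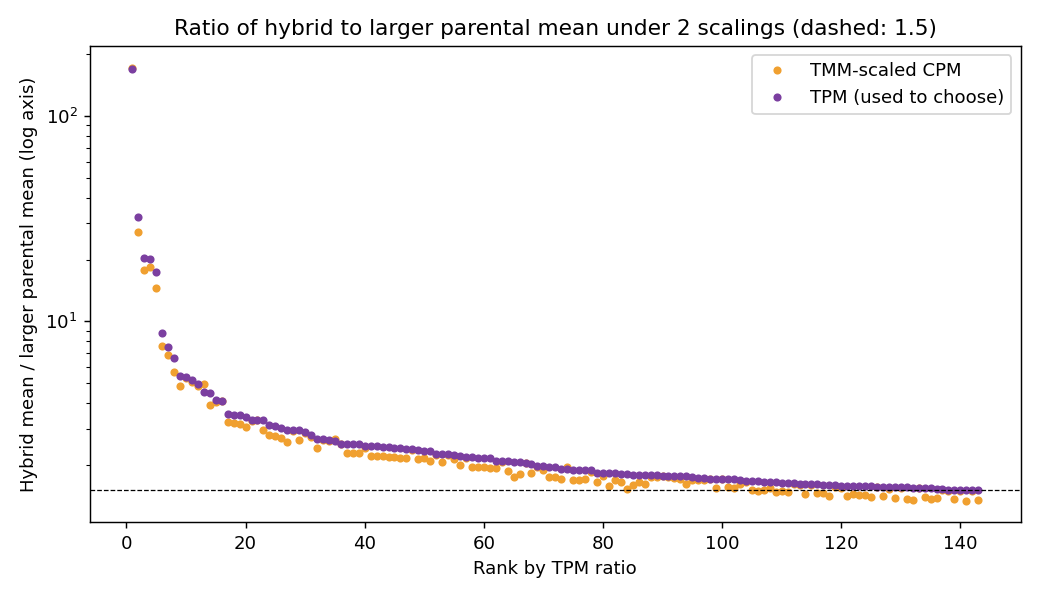
Each point is 1 of the 143 gene models, placed by its rank (horizontal axis) and its ratio of hybrid mean to larger parental mean (vertical log axis), in TPM (purple) and in TMM-scaled CPM (orange), with a dashed line at the limit of 1.5. The median ratio is 1.95 in TPM and 1.76 in TMM-scaled CPM, where 117 models have a ratio of at least 1.5 and the lowest is 1.34.

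The models of rank 1 to 5 had hardly any reads in either parent. That of rank 1 (1661 bases) was at 0 TPM in all 5 *com*, at 0 in 4 *rhy* and at 0.1 in rhy53. In the hybrids it had 2.27, 2.06, 4.86, 2.6 and 5.19 TPM (comrhy59 to comrhy63, the order used for all hybrids). This rests on 197 counts in the hybrids, 1 in *rhy* and 0 in *com*, so that, with a group floor of 3 counts, the hybrid level was at least 41.6-fold higher than *com*, and it was 168 times that of *rhy* (95% counting interval 29.8 to 6666). The model was thus detected in every hybrid and in 1 parental fish. The models of rank 2 and 3 (601 and 1711 bases) lie near each other on contig ptg000253l. Rank 2 had 14.15, 8.04, 3.02, 16.84 and 17.89 TPM in the hybrids, 0.5 TPM in com104, 1.36 TPM in com123 and 0 in the other parental fish. Rank 3 had 2.93, 1.74, 1.1, 1.67 and 2.29 TPM in the hybrids, 0.48 TPM in com123 and 0 in all others. Both neighbours were at 0 in all 5 *rhy* and had their lowest hybrid level in comrhy61. Against *com*, with 3 counts each, the ratios were 35.2 (95% counting interval 11.8 to 173) and 24.7 (8.24 to 121.4). Against *rhy*, with no counts, the hybrid levels were at least 47.5-fold and at least 33.2-fold higher by the same floor. These intervals and bounds cover counting error only.

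Rank 4 (1598 bases) had 1.89, 3.06, 1.52, 1.72 and 2.04 TPM in the hybrids, 0.51 TPM in com104, 0.22 in rhy50, 0.21 in rhy51 and 0 in the other parental fish. Rank 5 (1056 bases) had 2.53, 11.42, 1.28, 5.68 and 1.28 TPM in the hybrids, and 0.21, 0, 0.29, 0 and 0.77 TPM in *com* (com104, com121, com123, com124 and com125, the order used for all *com*). In *rhy* (rhy49 to rhy53) it had 0.19, 0, 0, 0.38 and 0.53 TPM. The hybrids were fairly even for the former and far apart for the latter, with comrhy60 highest in both.

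The model with the largest ratio among those with a hybrid mean of at least 10 TPM and reads in both parents was maker-ptg000420l-augustus-gene-4.167 (rank 6, 908 bases). It had 19.76, 32.22, 8.55, 11.74 and 9.97 TPM in the hybrids. In *com* it had 4.98, 0, 0, 0 and 4.43 TPM, and in *rhy* 2.75, 0, 0.45, 0.94 and 1.09 TPM. It was therefore present in every hybrid and at 0 in 4 of 10 parental fish, and the *com* mean came from com104 and com125 alone. The hybrid mean was 16.4 ± 9.83 TPM (SD, n = 5), with 1.88 ± 2.58 (SD, n = 5) for *com* and 1.05 ± 1.04 (SD, n = 5) for *rhy*, a ratio of 8.74, which was 14.9 without com104 and 13.2 without com125. Next came maker-ptg001666l-snap-gene-11.62 (rank 9, 1356 bases), with a wider margin between fish. It had 45.33, 33.75, 53.49, 50.51 and 37.61 TPM in the hybrids. In *com* it had 2.78, 12.49, 6.33, 3.12 and 15.88 TPM, and in *rhy* 9.28, 2.85, 9.59, 4.13 and 11.32 TPM. The parents shared 1 range, and the lowest hybrid had 2.13 times the level of the highest parental fish. Its hybrid mean was 44.1 ± 8.37 TPM (SD, n = 5), with 8.12 ± 5.83 (SD, n = 5) for *com* and 7.43 ± 3.71 (SD, n = 5) for *rhy*, a ratio of 5.44.

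Among more abundant models, that of rank 11 (3541 bases) reached 723.8, 704.69, 858.67, 944.2 and 581.76 TPM in the hybrids. In *com* it had 373.3, 95.89, 49.74, 84.47 and 48.25 TPM, and in *rhy* 249.86, 147.69, 91.93, 142.61 and 105.62 TPM. All hybrids were well above the parents, among which com104 and rhy49 stood highest. The ratio was 5.17, and the model is 1 of 6 with fractional counts in at least 8 of the 15 libraries, that is, reads shared with another model, so that its level is uncertain. Rank 12 (2530 bases) had 73.8, 153.16, 84.54, 49.69 and 154.05 TPM in the hybrids. Its *com* fish had 12.37, 18.43, 12.52, 9.25 and 11.81 TPM and its *rhy* fish 29.99, 12.88, 14.5, 15.94 and 30.29 TPM. Here the hybrids themselves spread widely, with comrhy60 and comrhy63 highest. Rank 13, the shortest model (209 bases), had the highest hybrid mean of all, at 1891 TPM, from only 616 counts over the 5 hybrids. Its hybrids spanned 1151 to 3333 TPM, *com* 35.9 to 405 TPM and *rhy* 252 to 601 TPM. Its ratio was 4.50 in TPM and 4.95 in TMM-scaled CPM. In the latter it did not meet the limits, because hybrid and parental fish overlapped.

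Apart from these, rank 59, 79 and 106 were the most abundant, with ratios of 2.17, 1.83 and 1.66. Rank 79 (2187 bases) had 456.89, 531.52, 469.62, 464.47 and 442.74 TPM in the hybrids, 177 to 308 TPM in *com* and 144 to 250.3 TPM in *rhy*. Rank 59 (1095 bases) had 259 to 436 TPM in the hybrids, 106 to 244 TPM in *com* and 62.98 to 239.7 TPM in *rhy*. Rank 106 (1819 bases) had 327 to 430 TPM in the hybrids, 160 to 268 TPM in *com* and 163 to 245 TPM in *rhy*. In all 3 com104 was the highest parental fish, and the margin to it was widest for rank 79, where the lowest hybrid had 1.44 times its level.

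**Figure D3:**
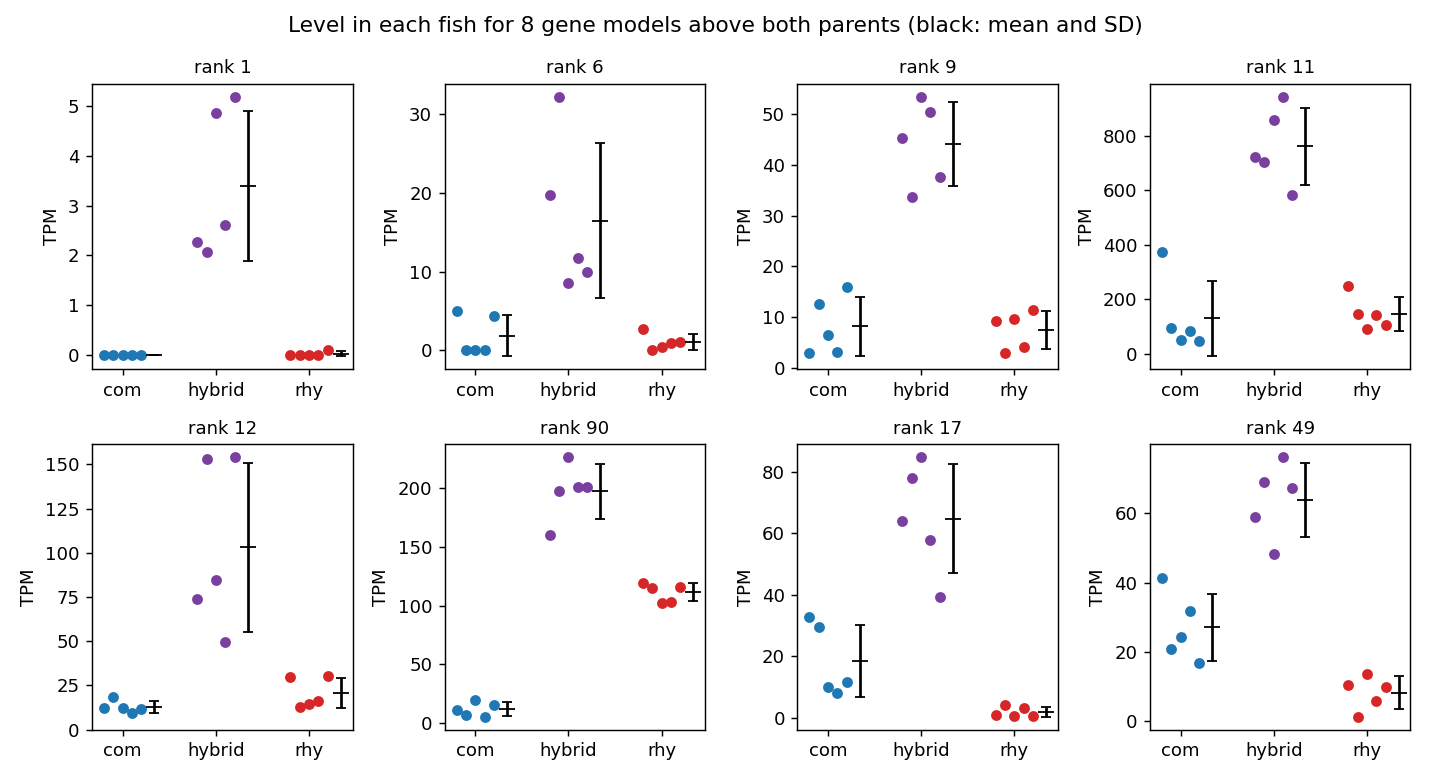
Points give the TPM of each fish (5 *com* in blue, 5 hybrids in purple, 5 *rhy* in red) for 8 gene models on linear axes, with the mean and SD in black. For rank 1 the parents lie at or near 0, for rank 6 they reach 4.98 TPM (com104), for rank 9, 11 and 12 the parents share a low range, for rank 90 *rhy* lies far above *com*, and for rank 17 and 49 *com* lies above *rhy*, with the hybrids highest in all 8.

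The contrast between the parents was not a limit of its own, but the choice used the larger parental mean and the highest parental fish. The shares that follow therefore depend on the choice, and how far it lowers them was not tested. In edgeR's quasi-likelihood test of *rhy* against *com*, 16 of the 143 models differed (limits of 0.05 on the adjusted p and 1 on the absolute log2 fold change), 3 higher and 13 lower in *rhy*, and 127 passed in neither direction. This is 11.2% of the models, beside 22.8% of all 18489 models tested (9.75% higher and 13.1% lower in *rhy*). All 143 models passed the filter on low counts, but 12 of them only with the help of the hybrids, as fewer than 2 parental libraries had over 10 counts (none did in 10 of the 12). Over the other 131 models, a choice made after seeing the data, 15 were called (3 higher and 12 lower in *rhy*), beside 23.4% of all 17514 models that passed the filter in the parents. With limma on log2(TPM + 0.1), 17 models were called, 8 higher and 9 lower in *rhy*, beside 23.8% of all models tested. Over all models tested, the median log2 ratio of *rhy* to *com* also depended on the scale, at 0.13 in TPM and -0.02 in TMM-scaled CPM. Shares of all models by direction were not computed with limma, so the changed split is not read as particular to the members. The number called higher in *rhy* was 5 without com104, 6 without com121 and 5 without com124. In either direction, 23.5, 22.5 and 21.7% of all models were called without these fish. Shares of all models by direction were not computed for these settings. The median log2 fold change of the models was -0.20, beside -0.02 over all models tested, and the median of its absolute size was 0.32 beside 0.57. The fish of *rhy* and *com* did not overlap in 12 of the models (8.39%), beside 30.9% of all models tested. The parental means lay within 1.5-fold of each other in 100 models and more than 2-fold apart in 23, and the *com* mean was the larger in 79 and the *rhy* mean in 64. For these counts the share over all models was not computed. The gene models are those of *com*, on which *rhy* reads were counted too, and the part of sequence differences in these values was not tested.

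**Figure D4:**
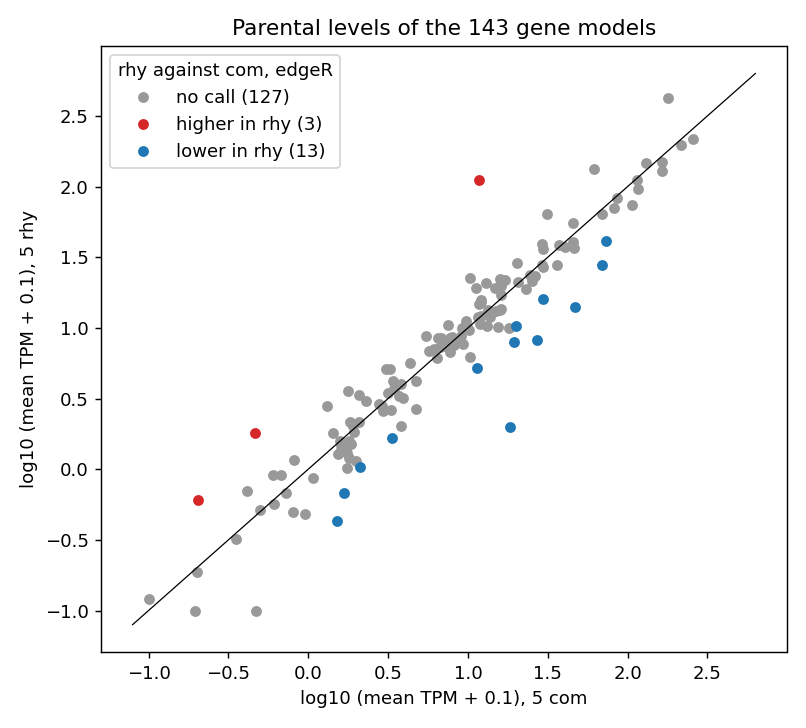
Each point is 1 of the 143 gene models, with its mean level in 5 *com* (horizontal) and in 5 *rhy* (vertical) as log10 of TPM plus 0.1, and the line marks equal levels. Models called between the parents by edgeR are red (3 higher in *rhy*) or blue (13 lower in *rhy*), and the 127 grey ones mostly lie along the line.

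In the 3 models that were higher in *rhy* than in *com*, the hybrids lay above *rhy*, as the limits require of all members. The largest change was that of maker-ptg000045l-snap-gene-0.24 (rank 90, 1155 bases). It had 10.8, 6.75, 19.65, 5.49 and 15.8 TPM in *com* and 119.62, 115.3, 102.7, 103.42 and 116.35 TPM in *rhy*. The hybrids had 160.59, 198.04, 226.36, 201.05 and 201.34 TPM. The 3 groups did not overlap, and the *rhy* fish differed little among themselves. The hybrid mean was 197 ± 23.6 TPM (SD, n = 5), with 111 ± 7.85 (SD, n = 5) for *rhy* and 11.7 ± 6.00 (SD, n = 5) for *com*. Between the parents, *rhy* was higher by 3.09 on the log2 scale (SE 0.27, edgeR adjusted p = 3.19e-07). The second, maker-ptg001648l-snap-gene-4.177 (rank 10, 1557 bases), was low in both parents. It had 0.52, 0.82, 0, 0 and 0.47 TPM in *com* and 2.16, 0.57, 2.87, 0.58 and 2.36 TPM in *rhy*. The hybrids had 6.96, 8.56, 10.39, 9.27 and 10.36 TPM. The parents overlapped, since rhy50 and rhy52 lay at the level of *com*, whereas the hybrids were even and had at least 2.43 times the highest parental level. Its log2 fold change between *rhy* and *com* was 1.98 (SE 0.62, adjusted p = 0.0165; edgeR), from 13 counts over *com* and 77 over *rhy*. The call was lost with only *com* and *rhy* libraries in the fit (1.96, adjusted p = 0.0660). The third, rank 16 (4095 bases), had 0 to 0.28 TPM in *com*, 0.29 to 0.87 TPM in *rhy* and 0.91 to 3.27 TPM in the hybrids, with a log2 fold change of 2.13 between the parents (SE 0.58, adjusted p = 0.00673; edgeR).

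In the 13 models that were lower in *rhy*, the order by group mean was *rhy*, *com*, hybrid, with the hybrid last by the limits. The largest change among those with a hybrid mean of at least 5 TPM was that of maker-ptg000901l-snap-gene-3.83 (rank 17), a long model of 6369 bases. It had 32.77, 29.37, 10.09, 8.12 and 11.45 TPM in *com* and 0.98, 4.05, 0.64, 3.19 and 0.63 TPM in *rhy*. The hybrids had 63.94, 77.84, 84.6, 57.84 and 39.24 TPM. Nothing overlapped between the 3 groups, although com104 and com121 stood well above the other *com*. The hybrid mean was 64.7 ± 17.8 TPM (SD, n = 5), with 18.4 ± 11.7 (SD, n = 5) for *com* and 1.90 ± 1.61 (SD, n = 5) for *rhy*. The change from *com* to *rhy* was -3.38 on the log2 scale (SE 0.55, edgeR adjusted p = 0.000133). Next by size was maker-ptg000959l-snap-gene-16.66 (rank 49, 1531 bases). It had 41.45, 20.71, 24.37, 31.81 and 16.92 TPM in *com* and 10.42, 1.28, 13.65, 5.8 and 9.73 TPM in *rhy*. The hybrids had 59.07, 69.05, 48.25, 76.16 and 67.18 TPM, and again no groups overlapped. The hybrid mean was 63.9 ± 10.7 TPM (SD, n = 5), with 27.1 ± 9.75 (SD, n = 5) for *com* and 8.18 ± 4.76 (SD, n = 5) for *rhy*, a log2 change of -1.86 between the parents (SE 0.39, edgeR adjusted p = 0.00118).

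Of the other 11 lower models, those of rank 23, 129, 20 and 24 are shown as examples. Rank 23 (2348 bases) had 70.81, 63.44, 22.02, 36.85 and 39.21 TPM in *com*, 17.15, 13.68, 13.87, 12.54 and 12.88 TPM in *rhy* and 95.29, 178.7, 211.31, 144.7 and 133.98 TPM in the hybrids. It changed by -1.85 between the parents (SE 0.25, adjusted p = 2.66e-05; edgeR), with rhy49 above the other 4 *rhy*. Rank 129 (1092 bases) had 51.39, 74.53, 67.04, 83.6 and 68.96 TPM in *com*, 25.93, 31.52, 28.31, 23.89 and 28.02 TPM in *rhy* and 101.56, 110.25, 129.52, 109.8 and 86.19 TPM in the hybrids. It changed by -1.49 (SE 0.13, adjusted p = 3.86e-07; edgeR), and here comrhy63 was only just above com124. In rank 20 (1720 bases) the *com* fish ranged from 2.1 to 23.03 TPM, across the *rhy* range of 4.04 to 5.98 TPM, and the hybrids from 23.25 to 48.85 TPM. In rank 24 (2267 bases) *com* had 12.48 to 30.39 TPM, *rhy* 4.33 to 19.25 TPM and the hybrids 47.68 to 75.38 TPM. Both were called between the parents although the parental fish overlapped.

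As a description, edgeR placed 57 of the 143 models higher in the hybrids than in *com* (4.66% of all models tested), 83 higher than in *rhy* (7.64%), 47 higher than in both (0.595%) and 50 higher than in neither by the same limits. The test and the limits on TPM thus picked partly different models, as 63 other models were called above both parents and are not among the 143. The 63 may include models left out only because the study prints them. By the limits on TPM without the removal of printed identifiers, 0.784% of the models tested were above both parents, and by the lack of overlap alone 1.23%. The median log2 fold change of the 143 models was 0.96 against *com* and 1.15 against *rhy*, beside 0.03 and 0.05 over all models tested. Both contrasts share the same hybrid fish and were used in the choice.

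The highest parental fish, which sets the margin, was most often com104 (33 models) or com121 (29 models), followed by rhy51 (23), rhy53 (14), rhy50 (13), com125 (9), rhy49 (8), com124 (6), com123 (5) and rhy52 (3). Without com104, 182 models met the limits, 132 of them among the 143, and without com121, 199 models, 141 of them among the 143. Without both fish, a choice made after seeing the data, 273 models met them, of which 137 were among the 143. Among the hybrids, the number was bounded most by comrhy63, without which 238 models met the limits. The highest hybrid was comrhy60 in 44 models, comrhy62 in 36, comrhy61 in 31, comrhy63 in 20 and comrhy59 in 12. In percent this was 30.8, 25.2, 21.7, 13.99 and 8.39% of the models, beside 32.4, 17.01, 21.1, 18.8 and 10.8% of all models with a hybrid mean of at least 1 TPM. The hybrid with the most members at its top was therefore also the hybrid most often highest over all models.

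The models resembled other expressed models in most properties of their annotation. By the source given in the identifier, 75 were MAKER models from the gene finder SNAP (52.4%, beside 55.2% of all models with a hybrid mean of at least 1 TPM) and 48 were MAKER models from AUGUSTUS (33.6 beside 30.3%). Another 18 were ab initio predictions on the masked genome (12.6 beside 10.9%), whose identifiers name SNAP too. The last 2 were built from transcript alignments (1.40 beside 3.502%). The median length was 2025 bases (209 to 6710) beside 2062, and 14 models were shorter than 1000 bases (9.79 beside 19.7%). Reads shared with other models, seen as fractional counts in at least 8 libraries, occurred in 6 models, among them rank 11, 22, 26, 56 and 65 (4.20 beside 5.62%). The spread between fish of a group was a median of 18.6% of the mean in the hybrids, 32.5% in *com* and 25.9% in *rhy*, beside 21.3, 26.6 and 21.6% over all models with a hybrid mean of at least 1 TPM. The spread was thus lower in the hybrids and higher in the parents than usual, in levels that the limit on overlap had selected.

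The models lay on 120 contigs, of which 103 held 1 model each and 17 held the other 40. How many contigs would be shared by chance was not tested. Contig ptg000405l held most, with 5 models of 97 that had a hybrid mean of at least 1 TPM. This is 5.15%, beside 0.8% over all such models. Of the 5 models, 3 carry the same number before the point of their identifier, which MAKER gives to a stretch of a contig. Rank 83 (2967 bases) had 26.45, 22.21, 21.14, 29.18 and 23.99 TPM in the hybrids, 12.47 to 15.29 TPM in *com* and 10.67 to 13.52 TPM in *rhy*. Rank 98 (1874 bases) had 12.64, 12.11, 11.04, 13.89 and 12.42 TPM in the hybrids, 5.66 to 7.56 TPM in *com* and 5.49 to 10.89 TPM in *rhy*. Rank 131 (862 bases) had 44.2, 45.41, 41.69, 45.73 and 46.95 TPM in the hybrids, 21.74 to 35.66 TPM in *com* and 19.58 to 36.73 TPM in *rhy*. In all 3 comrhy61 was the lowest hybrid, and the parents lay at similar levels. The other 2 models of the contig, rank 34 and 99, were weaker, at 3.25 to 5.71 TPM and 2.3 to 3.44 TPM in the hybrids.

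Contig ptg000253l held 4 models of 172 with a hybrid mean of at least 1 TPM (2.33%, beside 0.8% over all such models). Beside rank 2 and 3, rank 21 (1314 bases) had 5.56, 12.33, 12.81, 11.2 and 6.35 TPM in the hybrids against 0.81 to 4.34 TPM in *com* and 1.54 to 4.63 TPM in *rhy*. Rank 44 (1098 bases) had 25.72, 22.97, 24.64, 27.83 and 22.85 TPM in the hybrids against 5.47 to 16.55 TPM in *com* and 2.12 to 12.14 TPM in *rhy*. Unlike rank 2 and 3, both were present in every parental fish. Contig ptg000876l held 3 models of 33 expressed ones (9.09%), rank 72, 102 and 115. Rank 102 (3629 bases) had 48.89, 65.22, 55.7, 62.49 and 74.19 TPM in the hybrids, 28.3 to 42.83 TPM in *com* and 24.53 to 32.77 TPM in *rhy*. Rank 115 (5049 bases) had 27.07 to 39.44 TPM in the hybrids, 9.83 to 24.6 TPM in *com* and 14.02 to 23.02 TPM in *rhy*. Rank 72 (3267 bases) was weaker, at 2.29 to 5.01 TPM in the hybrids.

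In all, 15 models in 7 groups shared contig and number with another. On ptg001989l, rank 29 (2247 bases) had 7.25, 12.32, 11.58, 7.43 and 8.65 TPM and rank 58 (4717 bases) 7.97, 11.72, 11.24, 10.66 and 8.66 TPM in the hybrids. The order of the 5 hybrids was the same in this pair except between comrhy62 and comrhy63, and their parental fish lay at 1.26 to 5.45 TPM and 3.32 to 5.84 TPM. On ptg001228l, rank 92 (1554 bases) had 26.69 to 41.45 TPM and rank 113 (1134 bases) 55.06 to 66.5 TPM in the hybrids, and com104 was the highest parental fish in both, at 26.44 and 54.93 TPM. On ptg000385l, rank 95 had 13.53 to 19.53 TPM and rank 138 63.77 to 110.62 TPM in the hybrids. On ptg000214l, rank 24 was lower in *rhy* than in *com*, whereas rank 52 had 4.65 to 13.73 TPM in *rhy* and 1.8 to 11.68 TPM in *com* and passed in neither direction. On ptg000420l, rank 63 (3299 bases) had 6.76, 8.16, 11.08, 8.54 and 8.21 TPM in the hybrids, a flatter profile than that of rank 6 beside it. Whether such neighbours are parts of 1 transcript was not tested. The surroundings as a whole did not stand out: of 708 other expressed models with the contig and number of a member, 37.1% had a hybrid mean above both parental means, beside 35.0% of all other expressed models, and the median log2 ratio to the larger parent was -0.14 beside -0.16.

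Of the models left out because the study prints them, 1 is described here. It belongs to DACH1, a transcription regulator of the dachshund family, for which the study prints another model too. The model left out had 1.95, 3.05, 5.75, 2.79 and 4.13 TPM in the hybrids. In *com* it had 0.71 to 1.3 TPM and in *rhy* 0.61 to 1.02 TPM, a ratio of 3.28. Values of the other DACH1 model are not given here.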

How the data were processed

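The authors trimmed strand-specific, poly(A)-selected paired-end reads with Trimmomatic (version 0.39), mapped those of all groups to the *C. compressirostris* genome and estimated gene levels with RSEM (version 1.3.3); the aligner that RSEM called and the name of the genome build are not given in the sources used here. The deposited values used are expected counts, not normalized, and TPM, which the authors obtained with RSEM and which are scaled by effective length and library. Deposited FPKM were not used. Each of 34492 gene models has 1 transcript.

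Members were taken by TPM as described above. The values of 1 further model that met the limits and that the study prints are not reported here. Identifiers that the study prints in its gene tables carry character errors; 152 were matched and 5 were not, and 0 members share the ending of an unmatched one. The members, lists and tests were chosen with earlier results of these data known. Expected counts were rounded, and the 18489 models whose count exceeded 10 in 2 or more libraries were fitted over all 15 libraries in edgeR (version 4.0.16, R version 4.3.3; TMM, quasi-likelihood test, Benjamini-Hochberg adjustment over all models tested), which was tested on simulated data. Alternatives used DESeq2 (version 1.42.0), limma (version 3.58.1), other scalings, filters and limits, and each fish left out. The chi-square between any libraries of a group was 15.4 to 97.0 per degree of freedom, so none is a copy. Pairs with com104 had 56.0 to 97.0, beside 17.2 to 68.0 for the other *com* pairs. Pairs with comrhy59 had 53.0 to 81.6, beside 15.4 to 47.2 for the other hybrid pairs. Plots were drawn with matplotlib 3.10.9 and summaries made with pandas 2.3.3, scipy 1.17.1 and numpy 2.4.6 under Python 3.11.15.

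Given by identifier are the 2 members with the largest ratio among those with a hybrid mean of at least 10 TPM and both parental means above 0, and, between *rhy* and *com*, the 2 members called higher and the 2 called lower with the largest change among those with a hybrid mean of at least 5 TPM. Other members shown fish by fish were picked after their values were seen. Marker symbols are those the study prints: SCN4AA, KCNA7A_1 and KCNJ2 for electrocytes, TMOD4, KLHL30, C10orf71 and PPP1R3A for muscle, LCP1 and SIGLEC1 for leukocytes and macrophages, CD34 and FGD5 for endothelium and progenitors, TYRP1 for pigment cells and CLDN11 for myelin. The summed electrocyte list stood at 1678 to 2271 TPM in the hybrids, 2547 to 4194 in *com* and 1709 to 2369 in *rhy*. TYRP1 stood at 2.73 to 6.92 TPM in the hybrids, 0.16 to 1.68 in *com* and 19.5 to 53.5 in *rhy*, and CLDN11 at 52.4 to 75.4, 23.9 to 41.0 and 103.7 to 203 TPM.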

Additional observations from a re-analysis of the deposited data

Results flagged for a closer look

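Among 53 members examined fish by fish, 1 fish stood apart from the other 4 of its group (a gap over 0.71 of the group's range) in 11 of 156 groups. For normally distributed values about 1 in 20 groups would pass this limit. That rate need not hold for TPM with values at 0, nor for members partly picked after their values were seen. Over all 143 members it was 21 of 426 groups. Rank 11 had 373.3 TPM in com104, against 48.25 to 95.89 in the other *com*. Rank 15 had 2.24 TPM in com121, against 0 to 0.27 in the other *com*, and 5.48 TPM in comrhy63, against 2.66 to 3.08 in the other hybrids. comrhy60 stood apart in 3 members: rank 14 with 5.18 TPM against 1.13 to 2.03, rank 72 with 5.01 TPM against 2.29 to 2.55, and rank 113 with 66.5 TPM against 55.06 to 58.21. In *rhy*, rank 23 had 17.15 TPM in rhy49 against 12.54 to 13.87, and rank 72 had 1.87 TPM in rhy53 against 1.18 to 1.36. The other 3 were members at 0 in the rest of the group: rank 1 with 0.1 TPM in rhy53, rank 3 with 0.48 TPM in com123 and rank 4 with 0.51 TPM in com104.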

How the results depend on the processing

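Of the models given by identifier, the 2 called higher and the 2 called lower in *rhy* kept their direction under the alternatives run. For rank 6 and 9 only the ratio of hybrid to larger parental mean was followed, which the choice itself had set high. The number meeting the limits was 143 in TPM, 98 with size factors on TPM (89 of them members), 105 without the most abundant models (103), 68 with a ratio limit of 2 and 1622 with overlap allowed. It was 143 to 238 with 1 fish left out (238 without comrhy63) and 273 without com104 and com121. The median ratio of 1.95 was 1.76 in TMM-scaled CPM and 1.87 to 2.03 with 1 fish left out, and the ratio of rank 6 was 6.64 to 14.9. Of the 16 members called between *rhy* and *com* (3 higher, 13 lower), the number was 29 without a fold limit (7 and 22, beside 45.4% of all models), 10 with limma on log2(TPM + 1) (5 and 5, beside 18.3% of all models) and 14 to 19 with 1 fish left out (3 to 6 and 10 to 16, beside 21.5 to 23.5%). Over all models, 8403 were called without a fold limit, against 4223 with it. Shares of all models by direction were not computed for these alternatives. Of the members, 32.9% were called above both parents, beside 0.595% of all models tested. This was 72.7% without a fold limit and 28.7 to 34.3% with 1 fish left out, where the share over all models was not computed. As the members were chosen on these contrasts, nothing is read from these shares. The call of rank 10 between the parents was lost with only *com* and *rhy* libraries (1.96). It was also lost with limma on log2(TPM + 1), where the log2 change of 0.93 was under the fold limit of 1 (limma adjusted p = 0.0107). Beyond the fewer samples, the changed limit or the added TPM itself, the cause was not tested. Low counts limit the models of rank 1 to 5 and those of rank 8, 14 and 27, which had under 100 counts over the 5 hybrids, and a short length limits rank 13. No paired analysis was possible because the groups share no fish numbers.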
